A study of Mus musculus with 12 samples.

Results

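The genes described here encode the T cell receptor signalling machinery of mouse CD8+ T cells and the proteins that restrain it. They were chosen by name: 39 symbols were listed, and a gene was used where a probe set of the array carried exactly 1 symbol and that symbol was on the list. This gave 38 genes on 39 probe sets, of 22180 genes on 33793 probe sets in all; Cd247 was not analysed here. By role, the 38 genes were 5 receptor and coreceptor chains, 4 kinases and activating surface proteins, 7 adaptors and proximal effectors, 14 brakes and 8 genes of the downstream branches.

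The T cell receptor recognises peptide on MHC molecules and has no enzyme of its own. Phosphorylation of the CD3 chains by Src-family kinases recruits the kinase ZAP-70, which phosphorylates the scaffold LAT and the adaptor SLP-76 (encoded by Lcp2), and these assemble the exchange factors, phospholipase and kinases that switch on Ras, calcium, NFAT and NF-kappaB. Phosphatases, ubiquitin ligases, diacylglycerol kinases and inhibitory adaptors act at nearly every step and set how strong a stimulus must be, which in CD8+ T cells bears on the threshold for activation by antigen.

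The cells were CD8+ lymphocytes from the spleen of C57BL/6 mice, isolated with a kit that removes the other cells, and total RNA was measured on 12 single-channel arrays after 6 h. There were 4 groups of 3 arrays: PBS (mock treatment), PBS with IFN-4a, anti-CD3 antibody, and anti-CD3 with IFN-4a. Anti-CD3 antibody engages the receptor complex directly, without antigen, and IFN-4a is the type I interferon that the study added. The sources used here do not give doses, any costimulation or the number and age of the mice, so replicates may be technical, in which case the tests gauge no more than the spread from array to array. Below, resting means without and stimulated means with the antibody.

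The deposited values are logarithms with the base unstated, read here as log2 (natural logarithms would make every fold larger), and each probe set is centred on its median over the 12 arrays. A value of 0 is therefore a gene's own median, and levels of different genes cannot be compared. A change is the difference between the means of 2 groups on that log2 scale, SE is its standard error, and a gene is said to have risen or fallen where the Benjamini-Hochberg adjusted p of limma's moderated test over all 22180 genes was under 0.05. In RNA from a whole cell population, fewer cells of a type and less RNA per cell cannot be told apart.

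The treatments were visible in genes outside the pathway. With IFN-4a, Ifit1, an antiviral interferon-stimulated gene, rose by 5.16 in resting and 3.88 in stimulated cells. With anti-CD3 the immediate early gene Nr4a1 rose by 3.44 without and 3.52 with IFN-4a. Of the other genes checked, Isg15 rose with IFN-4a by 3.48 in resting and 3.26 in stimulated cells. Cd69 rose with anti-CD3 by 2.02 without and 1.16 with IFN-4a, and with IFN-4a in resting cells by 1.16. Anti-CD3 alone raised Ifit1 by 0.91 and Isg15 by 0.56, with lowest values of -0.22 and -0.36 under alternative fits. With IFN-4a present, Ifit1 fell by 0.36 with anti-CD3. The 12 array medians lay between -0.0157 and 0.0165, and the lowest correlation between arrays of a group, 0.727, exceeded the highest between groups, 0.544. The number of arrays limits the precision. All 7 measured CD8 T cell markers stood at 8 or above before centring, as the decimal steps of the values show (a dimmer probe set can pass by chance). The steps were read on the 6 highest arrays of each probe set, so it can pass through the groups where it is high. The same held for 1 of 7 B cell, 1 of 5 CD4 T cell and 2 of 6 NK cell markers. It held for none of 11 myeloid, 7 granulocyte and 3 erythroid and platelet markers. The mean of the NK cell markers lay between -0.43 and -0.33 on the PBS arrays, -0.08 and 0.19 with IFN-4a, -0.07 and 0.06 with anti-CD3, and 0.39 and 0.55 with both; Of these 6, Gzma rose with IFN-4a in both states, Nkg7 and Eomes rose with anti-CD3 and, in stimulated cells, with IFN-4a, and Klre1 fell in both anti-CD3 comparisons. Gzma, Nkg7 and Eomes are genes that CD8+ T cells also express. The median change of the NK cell list was 0.06 with anti-CD3 alone and -0.06 with IFN-4a present. The mean of the CD4 T cell markers ran from -0.21 to -0.17 with PBS and -0.15 to -0.05 with IFN-4a. It ran from 0.04 to 0.14 with anti-CD3 and 0.11 to 0.18 with both. Of these 5 genes only Cd40lg and Icos passed, rising in both anti-CD3 comparisons. The median change of the CD4 T cell list was 0.009 with anti-CD3 alone and -0.0009 with IFN-4a present. The mean of the CD8 T cell markers ran from 0.20 to 0.24 with PBS, 0.10 to 0.12 with IFN-4a, -0.17 to -0.11 with anti-CD3 and -0.14 to -0.11 with both. Of its 7 genes, Thy1, a T cell surface gene, and the pathway genes Cd8b1, Cd3d and Cd3g fell in both anti-CD3 comparisons, and Thy1 and Cd3d fell with IFN-4a in resting cells. In the other lists, Itgax rose and Cd79b fell in both anti-CD3 comparisons, Elane and Itga2b fell with anti-CD3 alone, and Cd68 rose and Cd79a fell with IFN-4a present. The part of these cells in the results below was not tested.

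Anti-CD3 changed most of the pathway, and it did so in both directions. The first comparison, antibody against PBS in the absence of interferon, asks what receptor engagement does to the RNA of its own signalling chain. The genes of the kinases Zap70 and Fyn and of the adaptor Lcp2 rose by 0.76 to 0.93, while those of the adaptors Themis and Grap2 and the phospholipase Plcg1 fell by 0.70 to 0.87. The largest changes were among the brakes, where Sla rose 3.22-fold, Ubash3b 3.13-fold, Cd5 2.27-fold and Ptpn6 2.23-fold and Sla2 fell 2.26-fold, and in the downstream gene Rasgrp2, which fell 3.18-fold.

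Of the 38 genes, 13 rose and 15 fell with anti-CD3 alone. Of all genes tested 31.8% passed in this comparison, 13.8% higher and 18.0% lower. The pathway genes are mostly well expressed: 37 of 38 had a probe set at 8 or above before centring on its 6 highest arrays. A gene can be of that kind through its high groups alone, so this filter is not independent of the changes. Among the 6606 genes of that kind, tested on their own, 74.0% passed, against 29 of the 37 pathway genes. The number of changed pathway genes was thus near that of other bright genes, and the results below are about which genes moved and by how much. The median change of the 38 genes was -0.04, as was that of all genes. With IFN-4a present in both groups, anti-CD3 raised 13 and lowered 14 of the 38, where 27.7% of all genes passed, 12.8% higher and 14.9% lower; of the bright genes tested on their own 71.5% passed, against 30 of 37. The group means of these 2 comparisons share no array. Their tests, however, use the same variance for each gene, fitted over all the arrays, so the calls are not independent. Of the 28 genes that passed without IFN-4a and the 27 that passed with it, 25 passed in both, which is 89.3% of the first and 92.6% of the second, and all 25 moved the same way; across the 38 genes the changes correlated with Pearson's r = 0.96 and Spearman's rho = 0.97, given as a description because the genes share arrays and are not independent.

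**Figure D1:**
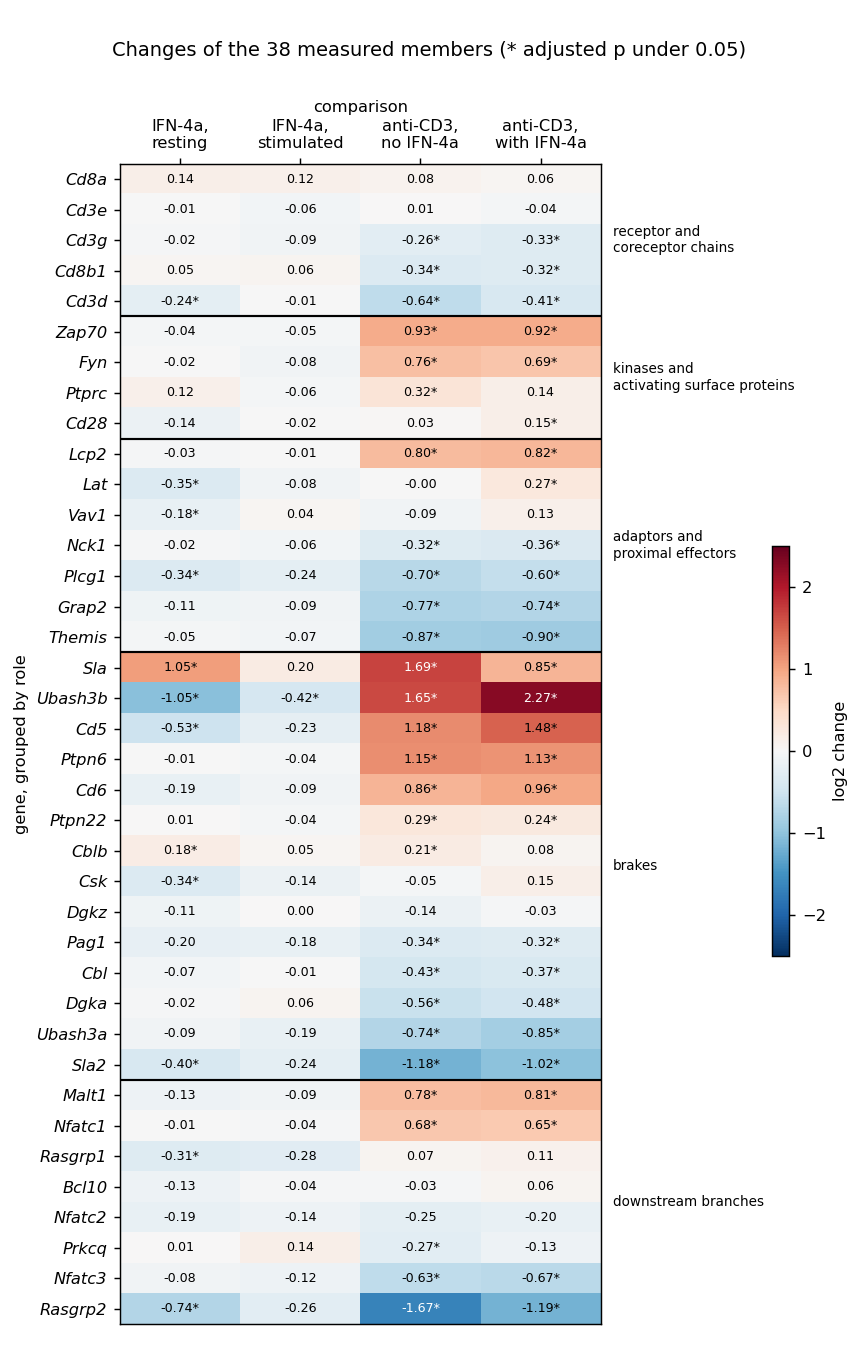
Heat map of the log2 change of the 38 measured genes (rows, grouped by role and ordered within a role by the change with anti-CD3 alone) in 4 comparisons of 3 against 3 arrays (columns); red is higher, blue lower, and an asterisk marks an adjusted p under 0.05. Both anti-CD3 columns hold strong colours of both signs, from -1.67 (Rasgrp2) to 1.69 (Sla) without IFN-4a and from -1.19 (Rasgrp2) to 2.27 (Ubash3b) with it, and in the IFN-4a columns Ubash3b and Sla stand out.

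Among the receptor and coreceptor chains, 3 of 5 fell with anti-CD3 and none rose. Cd3d, whose product pairs with that of Cd3e in the receptor complex, stood at 0.40, 0.38 and 0.47 on the PBS arrays and at -0.16, -0.22 and -0.31 on the anti-CD3 arrays. The groups did not overlap, and Cd3d fell by 0.64 (SE 0.05, adjusted p = 4.14e-07). Cd8b1, the beta chain of the coreceptor that binds MHC class I, fell by 0.34, and Cd3g, a further CD3 chain gene, by 0.26. Cd3e stood at a change of 0.01 (95% confidence interval -0.10 to 0.13) and Cd8a, the alpha chain of the coreceptor, at 0.08 (-0.03 to 0.18), neither past the test. In the RefSeq annotation of GRCm38.p6, Cd3g, Cd3d and Cd3e are consecutive coding genes on chromosome 9, and Cd8b1 and Cd8a on chromosome 6, so neighbouring genes of one complex did not all pass. With IFN-4a present, Cd3d, Cd8b1 and Cd3g again fell, by 0.41, 0.32 and 0.33.

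Of the kinases and activating surface proteins, 3 of 4 rose. Zap70, the kinase that binds the phosphorylated CD3 chains, stood between -0.44 and -0.40 on the PBS arrays and between 0.48 and 0.52 on the anti-CD3 arrays, a rise of 0.93 (SE 0.05, adjusted p = 8.75e-09) with no overlap. Fyn, a Src-family kinase gene, rose by 0.76, and Ptprc, the CD45 phosphatase gene whose product keeps Src-family kinases ready, by 0.32. With IFN-4a in both groups Zap70 rose by 0.92 and Fyn by 0.69. The Ptprc change with IFN-4a present was 0.14 and missed the test (adjusted p = 0.0567). Cd28, the main costimulatory receptor gene, stood at 0.03 without IFN-4a. With IFN-4a it reached 0.15 at adjusted p = 0.0488, a call that was lost in 13 of 19 alternatives (highest adjusted p 0.161), among them leaving out any stimulated array, the first or the second PBS with IFN-4a array, or the first PBS array.

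The adaptors and proximal effectors moved apart, with 1 of 7 higher and 4 lower. Lcp2, which encodes SLP-76, rose by 0.80 (SE 0.06, adjusted p = 6.67e-08), from -0.47 to -0.34 on the PBS arrays to 0.37 to 0.42 with anti-CD3. Grap2, whose product Gads holds SLP-76 to LAT, went the other way, from 0.39 to 0.51 down to -0.42 to -0.28, a fall of 0.77. Themis, a T cell adaptor gene, fell by 0.87, Plcg1, the phospholipase gene of the calcium and diacylglycerol branches, by 0.70, and Nck1, an adaptor gene of the actin branch, by 0.32. Lat, the membrane scaffold gene, had a change whose 95% confidence interval was -0.13 to 0.13, and Vav1, an exchange factor gene for Rac, stood at -0.09; neither passed. With IFN-4a present Lcp2 rose by 0.82, and Themis fell by 0.90, Grap2 by 0.74, Plcg1 by 0.60 and Nck1 by 0.36. In the same comparison Lat rose by 0.27 (adjusted p = 0.00353). A probe set shared by Plcg1 and Zhx3 was not used. Its means were 0.28 with PBS, 0.07 with PBS and IFN-4a, 0.006 with anti-CD3 and -0.15 with both.

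The brakes, the role with the most genes, held the widest changes, with 7 of 14 higher and 5 lower with anti-CD3 alone. Ubash3b encodes Sts-1, a phosphatase that acts on ZAP-70. Its values were -0.74, -0.75 and -0.53 with PBS, -1.83, -1.78 and -1.55 with PBS and IFN-4a, 1.04, 1.0 and 0.88 with anti-CD3, and 0.53, 0.53 and 0.58 with both. The 4 groups did not overlap, lowest with IFN-4a alone and highest with anti-CD3 alone. Anti-CD3 raised Ubash3b by 1.65 (SE 0.08, adjusted p = 1.84e-09) and, with IFN-4a in both groups, by 2.27 (4.82-fold, adjusted p = 7.13e-11).

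Sla encodes SLAP, an adaptor that lowers receptor levels together with the ubiquitin ligase Cbl. It stood at -1.55, -1.34 and -1.31 with PBS, -0.25, -0.42 and -0.39 with PBS and IFN-4a, 0.25, 0.37 and 0.25 with anti-CD3, and 0.46, 0.54 and 0.47 with both. The PBS arrays lay apart at the bottom and no groups overlapped. Anti-CD3 raised Sla by 1.69 (SE 0.07, adjusted p = 5.20e-10) without and by 0.85 (adjusted p = 5.53e-07) with IFN-4a.

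Cd5, which encodes a surface receptor that dampens receptor signals, stood at -0.54, -0.52 and -0.38 with PBS, -1.11, -1.04 and -0.86 with PBS and IFN-4a, 0.76, 0.71 and 0.65 with anti-CD3, and 0.38, 0.58 and 0.49 with both. It was lowest with IFN-4a alone, the groups did not overlap, and anti-CD3 raised it by 1.18 (SE 0.08, adjusted p = 3.12e-08) and, with IFN-4a, by 1.48 (adjusted p = 3.42e-09). Ptpn6, the gene of the phosphatase SHP-1, stood at -0.52, -0.55 and -0.52 with PBS, -0.51, -0.52 and -0.60 with PBS and IFN-4a, 0.69, 0.68 and 0.51 with anti-CD3, and 0.57, 0.61 and 0.58 with both. Both stimulated groups lay above both resting groups, and within each state the groups with and without IFN-4a overlapped. Ptpn6 rose by 1.15 without (SE 0.06, adjusted p = 2.39e-09) and by 1.13 with IFN-4a.

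Sla2, the gene of the related adaptor SLAP-2, was the brake with the largest fall. It stood at 0.77, 0.77 and 0.83 with PBS, 0.29, 0.36 and 0.51 with PBS and IFN-4a, -0.47, -0.39 and -0.29 with anti-CD3, and -0.70, -0.61 and -0.57 with both. Each treatment lay below PBS and the 4 groups did not overlap. Anti-CD3 lowered Sla2 by 1.18 (SE 0.07, adjusted p = 1.03e-08) without and by 1.02 with IFN-4a.

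**Figure D2:**
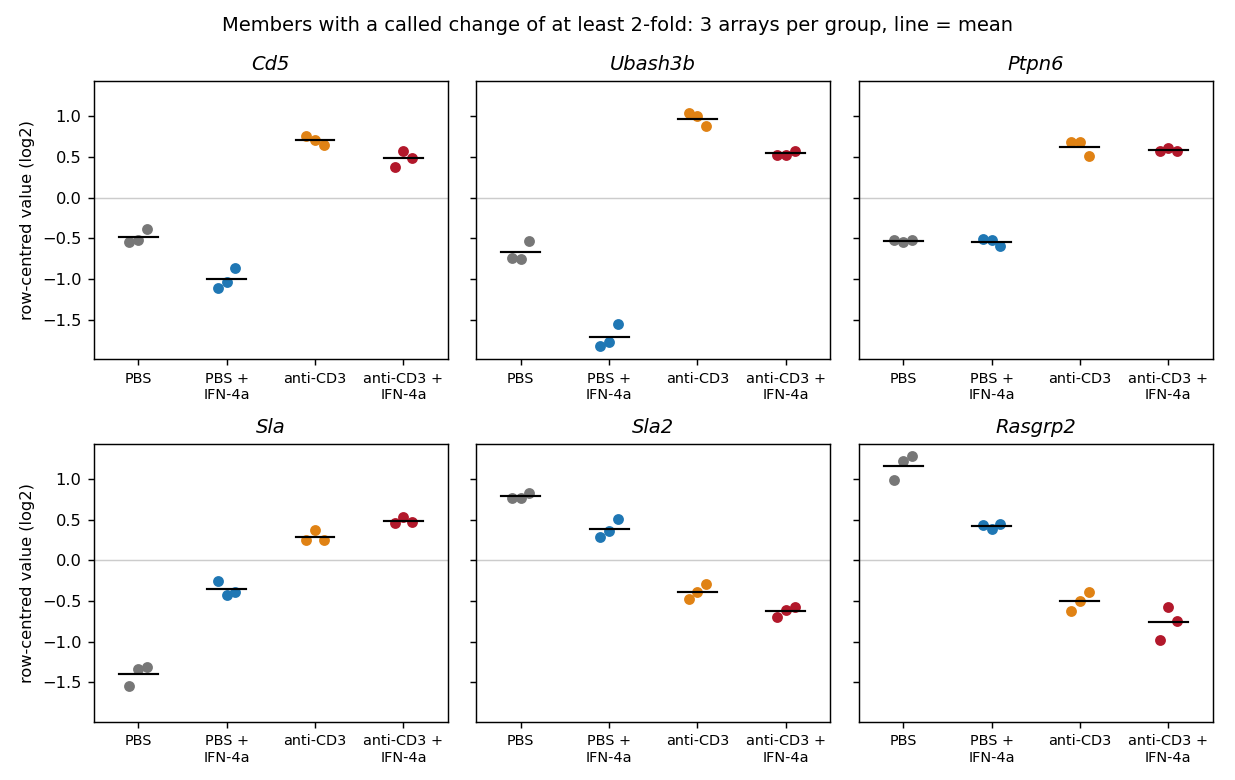
Row-centred log2 values (vertical axis) of the 6 genes with a change of at least 2-fold that passed the test, on the 3 arrays of each group (points, in replicate order within a group; the line is the group mean). Ubash3b and Cd5 are lowest with IFN-4a alone, Sla is lowest with PBS, Ptpn6 differs by stimulation alone, and Sla2 and Rasgrp2 are highest with PBS.

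The other brakes changed less. Cd6, which encodes a relative of CD5 and is the next coding gene to Cd5 on chromosome 19, rose by 0.86, Ptpn22, a phosphatase gene for Src-family kinases and ZAP-70, by 0.29, and Cblb, a ubiquitin ligase gene, by 0.21. Ubash3a, the gene of Sts-2 and a relative of Ubash3b, fell by 0.74, Dgka, which encodes a kinase that removes diacylglycerol, by 0.56, Cbl, a further ubiquitin ligase gene, by 0.43, and Pag1, which encodes a membrane anchor for the kinase Csk, by 0.34. With IFN-4a present Cd6 rose by 0.96 and Ptpn22 by 0.24, and Ubash3a fell by 0.85, Dgka by 0.48, Cbl by 0.37 and Pag1 by 0.32. Csk, whose product switches off Src-family kinases, stood at -0.05 (95% confidence interval -0.16 to 0.07) without and 0.15 (adjusted p = 0.0554) with IFN-4a. Dgkz, another diacylglycerol kinase gene, stood at -0.14 and did not pass. It was the only member with 2 probe sets of exactly 1 symbol, and they disagreed. The brighter of them fell by 0.24 (adjusted p = 0.0188) when it stood for the gene.

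Downstream, 2 of 8 genes rose and 3 fell. Rasgrp2 encodes an exchange factor for the integrin regulator Rap1. It stood at 0.99, 1.22 and 1.28 with PBS, 0.43, 0.39 and 0.45 with PBS and IFN-4a, -0.62, -0.50 and -0.39 with anti-CD3, and -0.98, -0.57 and -0.74 with both. Only the 2 stimulated groups overlapped. Rasgrp2 fell by 1.67 (SE 0.10, adjusted p = 1.45e-08) without and by 1.19 with IFN-4a, the second value being -1.90 after quantile normalization. Malt1, the protease gene of the NF-kappaB branch, rose by 0.78 and Nfatc1, an inducible NFAT gene, by 0.68, while Nfatc3 fell by 0.63 and Prkcq, the protein kinase C gene of that branch, by 0.27. With IFN-4a present Malt1 rose by 0.81 and Nfatc1 by 0.65 and Nfatc3 fell by 0.67, whereas Prkcq stood at -0.13 and did not pass. Without it Rasgrp1, the Ras exchange factor gene, stood at 0.07 (95% confidence interval -0.08 to 0.23), Bcl10, the partner of MALT1, at -0.03 (-0.16 to 0.10) and Nfatc2 at -0.25 (-0.49 to -0.02, adjusted p = 0.101).

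Several genes with a close relative in the pathway moved away from it. With anti-CD3 alone, both members passed with opposite signs for Ubash3b at 1.65 and Ubash3a at -0.74, Sla at 1.69 and Sla2 at -1.18, Nfatc1 at 0.68 and Nfatc3 at -0.63, and Cblb at 0.21 and Cbl at -0.43. The first 3 of these held the same signs and passed with IFN-4a, whereas Cblb then stood at 0.08 and did not. Cd5 and Cd6 rose together, and of the Rasgrp genes Rasgrp2 alone passed. Differences between related genes were not tested.

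**Figure D3:**
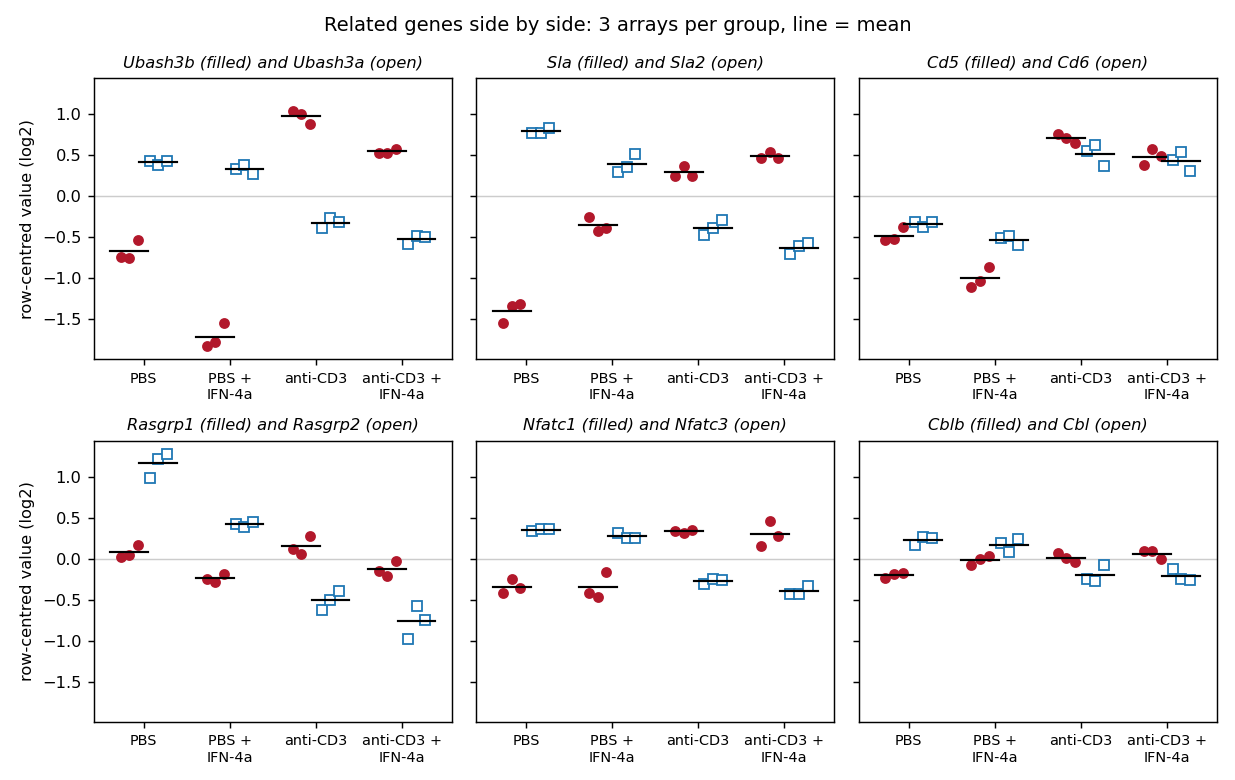
Row-centred log2 values (vertical axis) of 6 sets of 2 related genes on the 3 arrays of each group (filled circles for the first gene of a panel, open squares for the other; lines are group means). From PBS to anti-CD3, Ubash3b, Sla and Nfatc1 go up as Ubash3a, Sla2 and Nfatc3 go down, Cd5 and Cd6 go up together, and Rasgrp1 stays near its median as Rasgrp2 goes down; values of 2 genes share no common zero level.

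IFN-4a in resting cells lowered a smaller set of pathway genes and raised Sla. The comparison of PBS with and without IFN-4a asks what interferon does without a receptor stimulus. Ubash3b fell 2.06-fold (log2 -1.05, SE 0.08, adjusted p = 7.82e-07), Rasgrp2 fell by 0.74 and Cd5 by 0.53, and Sla rose 2.07-fold (log2 1.05, SE 0.07, adjusted p = 2.54e-07). Sla and Rasgrp2 depended in size on the scaling: quantile normalization, run on the centred values, gave 0.69 for Sla and -1.22 for Rasgrp2, both still past the test.

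Of the 38 genes, 2 rose and 10 fell. Of all genes 12.6% passed, 4.25% higher and 8.37% lower. Among bright genes tested on their own 36.4% passed, against 13 of the 37 bright pathway genes, so the share was again near that of other bright genes. The median change was -0.08 over the 38 genes, -0.01 over all genes and -0.07 over the bright genes. Of the bright genes 10.1% passed higher and 26.3% lower, so falls outnumbered rises there too. Among the brakes, Sla2 fell by 0.40 (adjusted p = 0.00151) and Csk by 0.34 (adjusted p = 0.00109). The scaffold gene Lat and the phospholipase gene Plcg1 fell by 0.35 and 0.34, Rasgrp1 fell by 0.31 and Cd3d by 0.24. Lat stood at 0.07, 0.01 and 0.14 with PBS and at -0.30, -0.25 and -0.28 with IFN-4a, without overlap.

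The 2 remaining calls were fragile. Vav1 fell by 0.18 (adjusted p = 0.0284), and the call was lost without any 1 of the 3 PBS with IFN-4a arrays, without the second or the third PBS array, and in a fit of these 2 groups alone (adjusted p up to 0.0985). Cblb rose by 0.18 (adjusted p = 0.0485), and this call was lost in 16 alternatives (adjusted p up to 0.138), among them leaving out any array except the third anti-CD3 and the first PBS with IFN-4a array. Cblb was also the 1 member without a probe set at 8 or above. The kinases and activating surface proteins had no call in 4 genes, with Zap70 at -0.04 (95% confidence interval -0.16 to 0.07) and Fyn at -0.02. Cd8a stood at 0.14 (adjusted p = 0.0686), Cd6 at -0.19 (adjusted p = 0.121), Pag1 at -0.20 and Nfatc2 at -0.19, none of them past the test. The brighter Dgkz probe set fell by 0.33 (adjusted p = 0.00762) when it stood for the gene, whereas the mean of both stood at -0.11 and did not pass.

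Anti-CD3 and IFN-4a in resting cells are both measured against the same PBS arrays, so their values are only set side by side. Ubash3b stood at 1.65 with anti-CD3 and -1.05 with IFN-4a, and Cd5 at 1.18 and -0.53. Sla stood at 1.69 and 1.05, Sla2 at -1.18 and -0.40, Rasgrp2 at -1.67 and -0.74, and Plcg1 at -0.70 and -0.34. Zap70, Fyn, Lcp2 and Ptpn6 rose with anti-CD3 and stood between -0.04 and -0.01 with IFN-4a.

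In stimulated cells IFN-4a lowered Ubash3b and no other of the 38 genes passed. Ubash3b fell 1.34-fold (log2 -0.42, SE 0.08, adjusted p = 0.00775). This is 1 of 38 genes, where 3.48% of all genes passed, 2.02% higher and 1.46% lower, and is no more than the background. Rasgrp1 stood at -0.28 (adjusted p = 0.0508), Plcg1 at -0.24 (adjusted p = 0.0673), Sla2 at -0.24 (adjusted p = 0.0774), Ubash3a at -0.19 (adjusted p = 0.0800), Cd5 at -0.23 (adjusted p = 0.150) and Sla at 0.20 (adjusted p = 0.169). The count was sensitive to the fit: quantile normalization gave 4 genes lower, array weights and a test among bright genes alone 5, and leaving out the third array given both agents or the third PBS array 2. Among bright genes alone 14.7% of 6606 passed, against those 5 of 37.

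**Figure D4:**
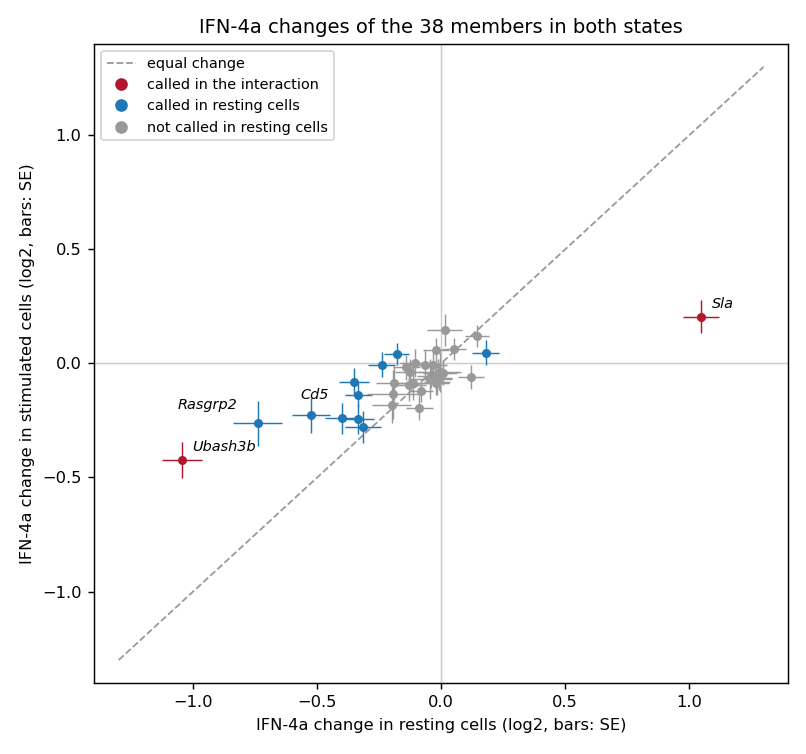
The log2 change with IFN-4a in resting cells (horizontal axis) and in stimulated cells (vertical axis) for the 38 genes, with bars for the SE and a dashed line where both changes would be equal. Sla (1.05 and 0.20) and Ubash3b (-1.05 and -0.42), in red, passed the test of the difference, and the other genes labelled, Rasgrp2 and Cd5, passed in resting cells.

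Whether IFN-4a acted differently in the 2 states was tested by an interaction term, the change in stimulated cells minus the change in resting cells. It passed for 2 of the 38 genes, where 0.942% of all genes passed, 0.298% higher and 0.645% lower; among bright genes alone 5.86% passed, against 2 of 37. For Sla the IFN-4a change was lower in stimulated cells by 0.84 on the log2 scale (interaction -0.84, SE 0.10, adjusted p = 6.04e-04), with -0.49 after quantile normalization (adjusted p = 0.00986). For Ubash3b the fall was smaller in stimulated cells (interaction 0.62, SE 0.11, adjusted p = 0.0164). The Ubash3b call was lost without the first (adjusted p = 0.0528) or the second (adjusted p = 0.0566) PBS with IFN-4a array. Rasgrp2 had an interaction of 0.48 (95% confidence interval 0.17 to 0.78, adjusted p = 0.183), Cd5 of 0.30 (adjusted p = 0.302), Lat of 0.27 (adjusted p = 0.221) and Cd3d of 0.23 (adjusted p = 0.238), none past the test. Of the 38 genes 33 had the same sign of IFN-4a change in both states, and across them the changes correlated with Pearson's r = 0.81 and Spearman's rho = 0.71; these 2 comparisons share no array.

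Promoter stretches are shown for the genes with the largest changes, since NFAT and AP-1 act downstream of the receptor and STAT factors downstream of interferon. RefSeq windows of GRCm38.p6 were found for 31 of the 38 genes and for 5 of the 6 genes with changes of at least 2-fold, all but Sla. The 250 bases before the first listed start are given 5′ to 3′ on the gene's strand for the 3 genes that rose and the 2 that fell with anti-CD3. Capitals mark every match, on either strand, to the interferon-stimulated response element core (2 runs of GAAA with 2 bases of any kind between them), the STAT motif TTCNNNGAA, the NFAT core GGAAA, the AP-1 motif TGANTCA and the FOXO motif TGTTTAC.
Ubash3b (chr9:41158063-41158312, minus strand): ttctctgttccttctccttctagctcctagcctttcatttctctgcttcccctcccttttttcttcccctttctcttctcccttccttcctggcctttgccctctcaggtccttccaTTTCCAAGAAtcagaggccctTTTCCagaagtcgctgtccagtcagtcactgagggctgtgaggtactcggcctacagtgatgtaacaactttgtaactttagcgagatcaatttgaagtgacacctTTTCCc
Cd5 (chr19:10738975-10739224, minus strand): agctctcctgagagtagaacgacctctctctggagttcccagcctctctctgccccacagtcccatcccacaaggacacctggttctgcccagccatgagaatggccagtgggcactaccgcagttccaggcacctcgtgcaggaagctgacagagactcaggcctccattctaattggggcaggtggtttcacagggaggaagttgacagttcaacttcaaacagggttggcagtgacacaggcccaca
Ptpn6 (chr6:124738710-124738959, minus strand): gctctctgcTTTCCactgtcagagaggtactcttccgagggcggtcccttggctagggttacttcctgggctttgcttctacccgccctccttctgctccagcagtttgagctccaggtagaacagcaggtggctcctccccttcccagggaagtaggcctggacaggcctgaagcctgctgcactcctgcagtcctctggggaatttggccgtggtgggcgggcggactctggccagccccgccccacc
Sla2 (chr2:156887222-156887471, minus strand): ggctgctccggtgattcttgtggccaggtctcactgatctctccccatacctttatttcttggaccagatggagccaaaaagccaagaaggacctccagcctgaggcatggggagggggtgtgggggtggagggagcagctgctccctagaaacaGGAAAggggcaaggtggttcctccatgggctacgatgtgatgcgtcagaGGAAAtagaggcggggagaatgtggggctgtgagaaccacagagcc
Rasgrp2 (chr19:6399625-6399874, plus strand): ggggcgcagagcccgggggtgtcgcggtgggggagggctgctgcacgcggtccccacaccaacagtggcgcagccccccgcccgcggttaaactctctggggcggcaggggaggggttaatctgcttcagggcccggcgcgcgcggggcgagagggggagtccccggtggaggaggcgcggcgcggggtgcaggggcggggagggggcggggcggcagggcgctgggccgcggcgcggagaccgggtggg
In the Ubash3b window a STAT motif match from -132 to -124 overlapped 1 of the 3 NFAT core matches. Ptpn6 had 1 NFAT core match and Sla2 had 2. The Cd5 and Rasgrp2 windows shown, both without capitals, held none of the 5 motifs. The windows of a second start of Rasgrp2 and of Ubash3b, not shown, each held 1 NFAT core match. Over all 32851 windows of this length, 2.98% held the response element core, 7.02% the STAT motif, 55.6% the NFAT core, 6.75% the AP-1 motif and 3.17% the FOXO motif. Of the 46 windows of the pathway genes, some of which are alternative starts of 1 gene, the same motifs were in 0, 4, 33, 0 and 3. A match is only a run of letters, and a window without one says nothing about binding elsewhere.

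The rest of the pathway was read from a list of 109 further genes, of which 91 were measured. With anti-CD3 alone 31 rose and 37 fell, which is 74.7% of the 91, against 31.8% of all genes. The list held 73 bright genes, and in the test of bright genes alone 59 of them passed, against 74.0% of all bright genes. Spry1, which encodes an inhibitor of Ras signalling, rose by 3.87, Cd160, a surface receptor gene, by 3.62 and Dusp4, a MAP kinase phosphatase gene, by 2.30; Nedd4, a ubiquitin ligase gene, fell by 0.96, Cd226, an activating receptor gene, by 0.96 and Stim1, the calcium sensor gene of the endoplasmic reticulum, by 0.94. With IFN-4a present 29 rose and 33 fell, which is 68.1%, against 27.7% of all genes, and 57 of the 73 bright ones passed, against 71.5%. The changes were led by Spry1 at 3.53, Cd160 at 3.34 and Dusp4 at 2.05, and by the calcium channel gene Orai2 at -0.96, Cd226 at -0.91 and Rasa3, a Ras GTPase-activating protein gene, at -0.86.

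IFN-4a raised 14 and lowered 9 of these 91 genes in resting cells, which is 25.3%, against 12.6% of all genes, and 26 of the 73 bright ones passed, against 36.4%. Jun, an AP-1 subunit gene, rose 2.0-fold, Mapk9, a JNK gene, by 0.58 and Sos1, a Ras exchange factor gene, by 0.58, while the inhibitory adaptor gene Sit1 fell by 0.58, the phosphatase gene Ptpn7 by 0.45 and Akt1 by 0.34. In stimulated cells 4 rose and 2 fell, which is 6.59%, against 3.48% of all genes, and 10 of the 73 bright ones passed, against 14.7%. Map2k1, a MAP kinase kinase gene, rose by 0.64, Cish, a cytokine-induced inhibitor gene, by 0.56 and Sos1 by 0.40, and Dusp4 fell by 0.62 and Sit1 by 0.57. The Sit1 calls were lost after quantile normalization, at -0.66 in resting (adjusted p = 0.277) and -1.17 in stimulated cells (adjusted p = 0.0893). The Dusp4 call (adjusted p = 0.0273) was lost without the first or the third array given both agents and without the second or the third anti-CD3 array. The interaction passed for 2 of the 91, or 2.20%, against 0.942% of all genes, and for 6 of the 73 bright ones, against 5.86%. The 2 genes were Jun at -1.04 (SE 0.13, adjusted p = 0.00112) and Rel, an NF-kappaB subunit gene, at -0.53 (adjusted p = 0.00656), the latter lost after quantile normalization (-0.34, adjusted p = 0.0990), both of which rose with IFN-4a in resting cells and stood at -0.04 and 0.0041 in stimulated cells.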

How the data were processed

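CD8+ T cells were profiled on 12 arrays, and the authors deposited 1 table of log-scale values, taken as log2, centred on each probe set's median over the arrays; the sources used here do not name the software or normalization. All 12 columns were used. Probe sets with exactly 1 symbol were kept and those of a gene averaged, giving 22180 genes. Group means and contrasts were fitted over all 12 arrays with limma 3.58.1 in R 4.3.3 (moderated test, 8 residual degrees of freedom, Benjamini-Hochberg over all genes, threshold 0.05), a procedure tested on simulated data. The members and lists were chosen with earlier results of these data known. Every measured member is given, with the value on each array where a called change reached 1 (log2), or 0.5 in the interaction; of the other pathway genes the 3 largest called changes in each direction are named. Marker genes named singly were chosen after their values were seen. All 38 member symbols matched RefSeq. Same-numbered arrays were not treated as pairs. Alternatives were a replicate block, quantile normalization, other rules for several probe sets, array weights, bright genes alone, fits of 2 groups and leaving out each array. The quantile normalization was run on the centred values, as no others were at hand.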

Additional observations from a re-analysis of the deposited data

Results flagged for a closer look

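The effect of IFN-4a on Sla differed between the states by the test of the interaction, at -0.84 on the log2 scale (95% confidence interval -1.06 to -0.62). All 3 resting arrays with IFN-4a lay above all 3 without it, by 1.05 on average, and the 3 stimulated arrays with IFN-4a lay above those without it by 0.20. After quantile normalization the Sla interaction was -0.49 and still passed. The effect on Ubash3b differed by 0.62 (0.38 to 0.87), from -1.05 in resting to -0.42 in stimulated cells, with no overlap between the groups in either state. The Ubash3b interaction call was lost without the first or the second PBS with IFN-4a array.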

How the results depend on the processing

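The count of pathway members with a lower value after IFN-4a in stimulated cells was 1, against 4 after quantile normalization, 5 with array weights, 5 among bright genes alone, 4 with the replicate block, and 1 to 2 when single arrays were left out. The interaction count of 2 members ran from 1 to 2 without single arrays. Of the other pathway genes, 6 passed for IFN-4a in stimulated cells, with 10 among bright genes alone, 11 with the replicate block and 4 to 7 without single arrays, and 2 passed for the interaction, with 1 after quantile normalization, 4 with array weights, 6 among bright genes alone and 2 to 3 without single arrays. The causes were not tested. Members passing kept within 10 to 13 for IFN-4a in resting cells, 28 to 29 for anti-CD3 alone and 26 to 30 for anti-CD3 with IFN-4a under the alternatives run, and no member whose change passed reversed its sign. Of the members' calls, 10 of 12, 1 of 1, 28 of 28, 26 of 27 and 1 of 2 (in the order IFN-4a resting, IFN-4a stimulated, anti-CD3 alone, anti-CD3 with IFN-4a, interaction) held under every alternative that tested them. Deviations of the 18 same-numbered array pairs correlated at -0.0718 to 0.268, 6 of them above 0.1, all between arrays numbered 1 or 3. The array best correlated with another group's array bore its number in 20 of 36 cases, against 12 if numbers had no relation, a hint from the data that some same-numbered arrays vary together. The arrays were not treated as pairs because the labels name no shared source and not every pair exceeded 0.1. The block also ended the calls of Cblb (IFN-4a, resting) and Cd28 (anti-CD3 with IFN-4a). Dim probe sets limit what could be seen, as the deposited values hold no level above background.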
